A study of Homo sapiens with 4 samples.

Results

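The genes described here are 42 genes of DNA replication, chosen by name as the subunits and enzymes that license origins, unwind DNA, copy it, join the copied strands and supply the nucleotides. All 42 were found among the 16174 genes of the deposited table, with 1 row each. They were followed in primed cells of H9, a widely used human embryonic stem cell line, that carried a doxycycline-inducible dCas9-BFP-KRAB (a nuclease-dead Cas9 joined to a repressor domain, used for CRISPR interference). The cells had received either 4 pooled guides against the long non-coding RNA gene SNHG26 or non-targeting control guides, both by piggyBac transposition and puromycin selection, so each arm is a selected pool of transfected cells. Every library came from cells on doxycycline, for 2 days or 3 days, so no group is free of the drug or of dCas9-KRAB. There was 1 library per guide arm and day, 4 in all, and the libraries of an arm differ in day. Nothing in the labels says that the libraries came from separate cultures, so every p-value here measures only the spread between these libraries. Below, a mean ± SD of an arm has n = 2 and contains any effect of the day.

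Replication starts at origins, where the origin recognition complex, CDC6 and CDT1 load rings of MCM2 to MCM7 in G1 phase. In S phase CDC45 and the GINS complex join the rings to form the moving helicase, the primase of polymerase alpha lays down primers, and polymerases epsilon and delta extend them while held by the ring-shaped clamp PCNA. Many of these genes are known targets of the E2F transcription factors, which switch them on at the passage from G1 to S. Human embryonic stem cells are known for a short G1 phase and a large share of cells in S phase.

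The promoters are shown first because their sequences were not used in the choice of genes. Since many of these genes are known E2F targets, the share with an E2F octamer is not independent of that choice. RefSeq promoter windows (GRCh38.p14, 250 bases before the annotated start and 50 after it) were matched by symbol for 36 of the 42 genes, and the E2F octamers TTTCCCGC, TTTCGCGC, TTTGCCGC and TTTGGCGC were searched on both strands. At least 1 octamer lay in a window of 19 of the 36 genes (52.8%). The same search found one in 3.99% of 27305 genes with a window, and in 7.13% of the 6118 such genes that passed the expression filter used below. Of all 35116 windows of this length, 3.31% held one. The CCAAT box, searched in the same way, was in a window of 21 of the 36 genes (58.3%), against 45.1% of the genes past the filter. The sequences below come from members whose levels are given later, with the octamers in capitals and each strand read in the direction of the gene. In MCM2 and MCM6 an octamer on one strand overlaps another on the opposite strand.

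MCM2 (chr3:127598404-127598433, plus strand): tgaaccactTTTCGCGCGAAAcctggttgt
MCM6 (chr2:135876513-135876542, minus strand): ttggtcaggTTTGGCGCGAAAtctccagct
MCM7 (chr7:100101390-100101415, minus strand): ggggcgacgTTTCGCGCcaatttcgg
MCM3 (chr6:52284730-52284755, minus strand): ttcggaagtTTTCGCGCcggggtgga
CDC6 (chr17:40287877-40287902, plus strand): ccattcggaTTTGGCGCgagcgcggc
CDT1 (chr16:88803745-88803770, plus strand): agggcgcccGCGGGAAAtttggcggg
PCNA (chr20:5126665-5126690, minus strand): gcgtcagggGCGGGAAAaggcgtgcg
POLE2 (chr14:49688203-49688228, minus strand): gcggcggtgGCGCCAAAtcgcaaata
TYMS (chr18:657605-657630, plus strand): gggacggccGCGGGAAAaggcgcgcg
LIG1 (chr19:48170442-48170467, minus strand): ttcacccctTTTCCCGCcctcctccc

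Counting the annotated start as base 0, the matches shown begin at base 2 in MCM2, -90 in MCM6, -9 in MCM7, -4 in MCM3, 7 in CDC6, -35 in CDT1, -59 in PCNA, -5 in POLE2, -39 in TYMS and -114 in LIG1. Over the 19 genes, 20 of 26 matches began no more than 100 bases before the start or after it. The 17 members with an octamer that passed the expression filter had a median mean level of 12.8 TPM, and the 17 with a window but no octamer had 9.91 TPM. A match is a run of letters and was not tested as a binding site.

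The deposited unit is TPM, which scales length-corrected reads so that libraries have equal totals. The length used is not given in the sources used here. It was inferred to be genomic span with introns, since multiplying by the listed span gave whole reads in every library for 2853 of 13840 genes that were above 0 anywhere. Division by span lowers the TPM of long genes. On that reading, per 10 kb of span, 1 read was worth from 0.653 to 0.803 TPM in the 4 libraries. The listed spans of the members ran from 3441 bases for POLE3 to 332046 bases for PRIM2. Across the 42 genes, span and mean TPM had a Spearman correlation of -0.67, against -0.34 across the 8274 genes past the filter, where the points share the libraries and the division by span. Levels of different members are therefore compared only per genomic span, as the TPM gives them. The libraries were shallow, with at most 947338 to 1220265 reads each when every read is placed on the full listed span. Only ORC1 and CDT1 came out as whole reads on their listed span in every library. For the others the span of the transcripts counted is not given, so the full span gives an upper bound and the median span of the GENCODE 29 transcripts a rough estimate. Over all 42 members that estimate was 20 or more reads per library on average for 19 and fewer for 23. For CDT1 it was too low, with 5.58 estimated against 19 exact reads in the SNHG26 library of day 2. The cells carried the markers of their label: POU5F1 stood between 1050 and 1212 TPM and SOX2 between 240.9 and 307.5 TPM, while ZIC2 was listed at 0. Of 14 markers of differentiated cells, 5 were listed, and their summed level was 7.95 and 7.99 TPM with the SNHG26 guides and 10.7 and 13.9 TPM with the control guides, all from COL1A1 and COL1A2 apart from MIXL1 at 1.98 TPM in the day 3 control library. EOMES and ISL1 were at 0 in every library. The part of these cells in any result was not tested.

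**Figure D1:**
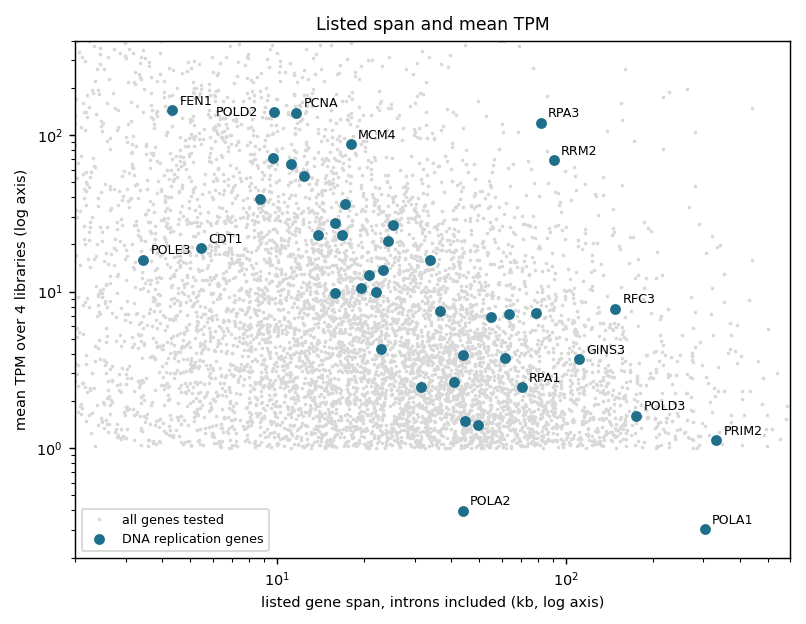
Mean TPM over the 4 libraries (vertical log axis) against the listed gene span with introns (horizontal log axis, kb) for the 42 DNA replication genes (blue) and all genes tested (grey; a few lie outside the axes). POLA1 and PRIM2, with the longest spans, sit near the bottom, and FEN1, PCNA and POLD2, with short spans, sit at the top. RPA3 and RRM2 lie above the trend.

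SNHG26, the gene the guides target (chromosome 7, 22853869 to 22913785, plus strand), was listed at 0 and 0.933 TPM with its guides on days 2 and 3, and at 2.98 and 4.03 TPM with the control guides. The libraries of the arms did not overlap. In the same order, the full span allows at most 0, 8.56, 22.2 and 35.9 reads. The estimate from transcript spans was 0, 0.722, 1.87 and 3.03 reads. The log2 change was -1.69 (SE 0.58), with a limma unadjusted p of 0.0417 and an adjusted p of 0.935 over all genes tested.

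By mean level over the 4 libraries, 9 of the members stood at 50 TPM or more, 20 between 5 and 50 TPM, 11 between 1 and 5 TPM and 2 below 1 TPM. The median of the 42 was 11.7 TPM, against 5.61 TPM for all genes past the filter. The expression filter asked for a library average of 1 TPM or more and kept 40 members, and POLA1 and POLA2 fell below it. A value above 0 was listed in all 4 libraries for 40 members, the exceptions again being POLA1 and POLA2.

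**Figure D2:**
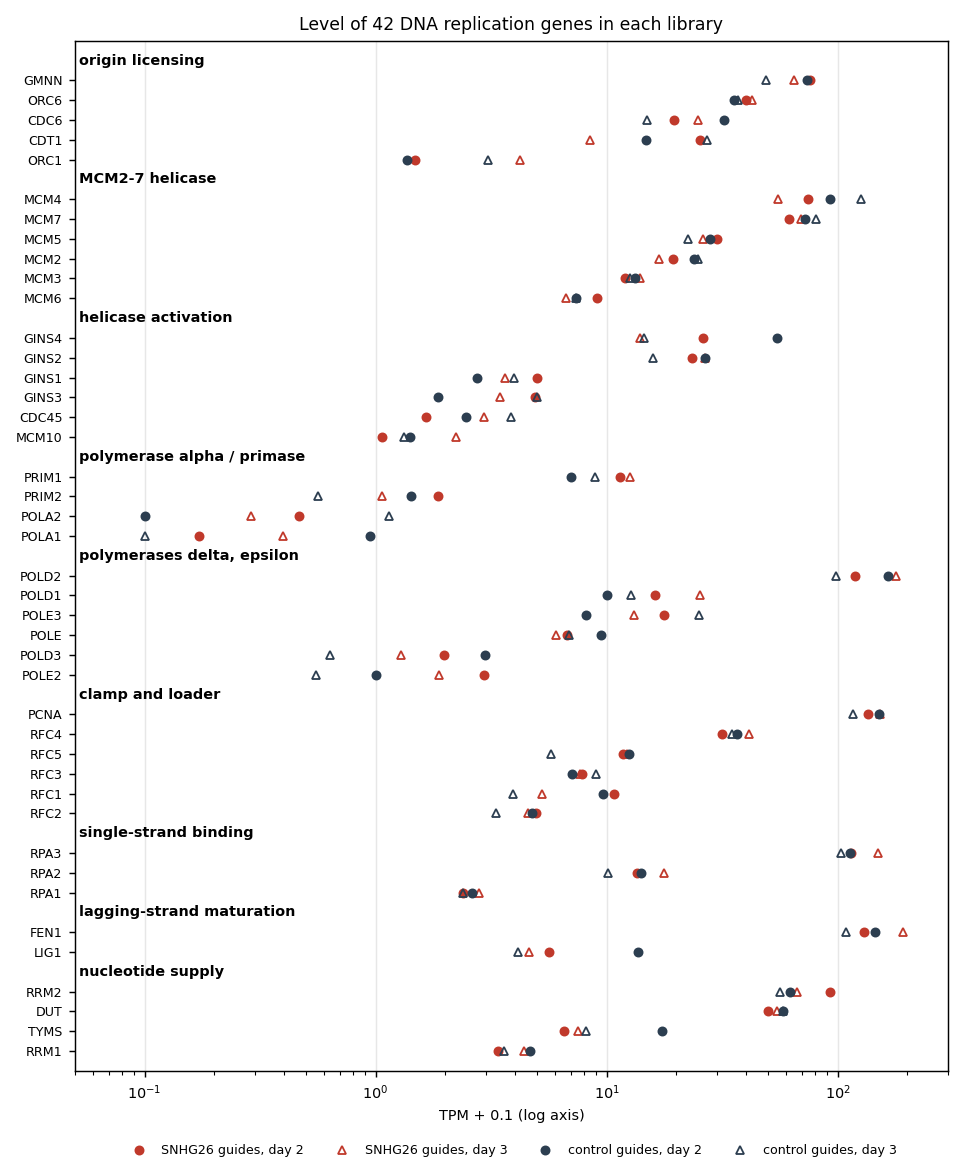
TPM + 0.1 (log axis) of each of the 42 genes in each of the 4 libraries, grouped by role and ordered by mean level, with the SNHG26 guides in red, the control guides in dark blue, day 2 as filled circles and day 3 as open triangles. The 4 symbols of a gene mostly interleave; MCM4, POLD1, PRIM1 and POLE2 are among the genes where both red symbols lie on 1 side of both blue ones.

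Between the guide arms no replication gene passed the test. Limma on log2(TPM + 1) gave 0 of 40 members an adjusted p under 0.05, where 0 of 8274 genes passed (0%). None of the 40 had an unadjusted p under 0.05 either, where 4.07% of all genes had one. The members' median log2 change was 0.12, with 27 changes above 0 and 13 below, and the median over all genes tested was 0.04. The largest differences with the SNHG26 guides were lower MCM4 and TYMS, and higher POLE2 and POLD1. All had limma adjusted p-values of 0.935.

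The groups can also be read by whether the libraries overlap. Of the 40 members, 6 (RRM2, ORC6, PRIM1, POLE2, POLD1 and RPA3) were higher in both SNHG26-guide libraries than in both control libraries. Among all genes tested, 16.1% were. Another 6 (MCM2, MCM4, MCM7, TYMS, DUT and POLE) were lower in both, as were 13.2% of all genes. These counts are near the background. The change had the same sign on both days in 20 of 40 members (50.0%), of which 12 were higher and 8 lower with the SNHG26 guides, against 51.2% of the 7513 genes that moved on both days. The median of the members was -0.09 on day 2 and 0.24 on day 3, and over all genes 0 and 0.03.

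**Figure D3:**
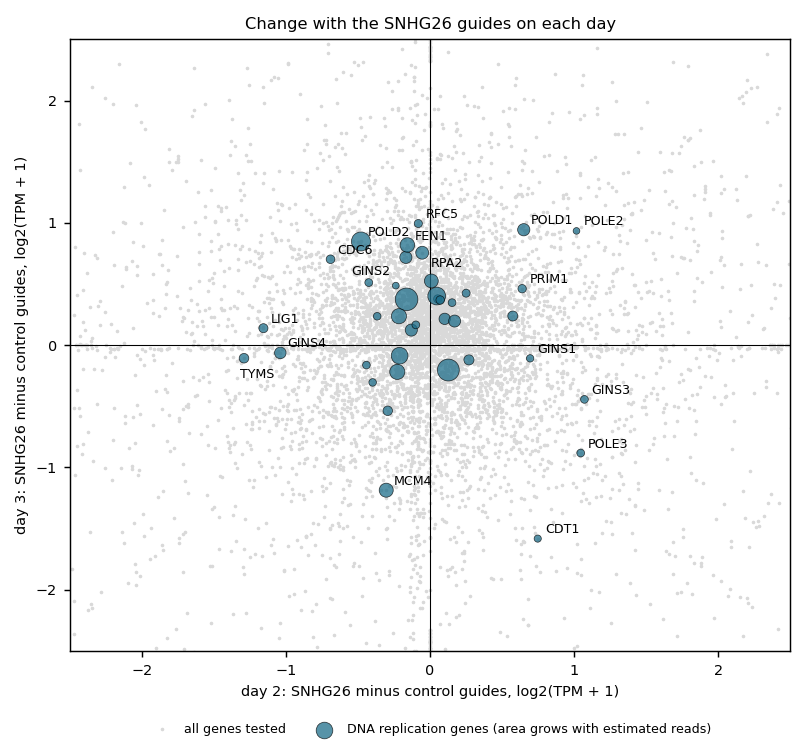
Difference between the SNHG26 and control guides on log2(TPM + 1) on day 2 (horizontal axis) and day 3 (vertical axis), for the 40 members past the filter (blue, area growing with the estimated reads) and all genes tested (grey; a few lie outside the axes). The members spread to every side of the origin; POLD1, POLE2 and PRIM1 lie at the upper right, MCM4 at the bottom, and CDT1 and POLE3 at the lower right.

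In the replicative helicase core, MCM2 to MCM7, 3 of 6 genes were lower without overlap and none higher, against 13.2% and 16.1% of all genes tested. This group was singled out after its values were seen and was not tested as a set. Over all 40 members, 6 were lower and 6 higher without overlap. The summed polymerase alpha and primase genes, given below, also separated the arms, in the other direction. MCM4 (chromosome 8, 47960185 to 47978160, plus strand) stood at 74.5 and 54.9 TPM with the SNHG26 guides on days 2 and 3, and at 92.3 and 126.2 TPM with the control guides. Both libraries of the SNHG26 arm were below both control libraries, by more on day 3 than on day 2. That difference between the days did not pass, at -0.88 on the log2 scale (SE 0.83; limma unadjusted p = 0.346, adjusted p = 0.965). The means were 64.7 ± 13.9 and 109.3 ± 24.0 TPM, and the log2 change was -0.75 (SE 0.29; limma unadjusted p = 0.0602, adjusted p = 0.935). Among the 2435 genes with at least 20 estimated reads, its unadjusted p was 0.0391 and its adjusted p 0.997. MCM4 has 25 transcripts in GENCODE 29, the most of any member, and a TPM built on spans also moves when the mix of long and short transcripts does. Whether that mix differed between the arms was not tested.

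MCM2 was at 19.3 and 16.7 TPM against 23.8 and 24.7 TPM. MCM7 was at 61.4 and 69.2 TPM against 72.1 and 80.7 TPM. In both genes the arms did not overlap, with log2 changes of -0.42 (SE 0.26) for MCM2 and -0.22 (SE 0.22) for MCM7. The other ring subunits overlapped between the arms. MCM3 ranged from 11.9 to 13.8 TPM over the 4 libraries and MCM6 from 6.60 to 8.99 TPM. MCM5 was higher with the SNHG26 guides on each day, at 29.9 and 26.2 TPM against 27.8 and 22.4 TPM. Added together, the ring genes came to 206.0 and 187.4 TPM with the SNHG26 guides and to 236.4 and 273.8 TPM with the control guides, a ratio of the means of 0.771. Without MCM4 the sums were 131.4 and 132.5 TPM against 144.1 and 147.6 TPM, a ratio of 0.905. Both sums were lower in the SNHG26 arm on both days, by less without MCM4. No ring gene passed the test between the arms. In bulk RNA, fewer cells in the phase that makes a transcript and less RNA per cell cannot be told apart, and neither was tested.

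Of the genes that turn the loaded ring into a helicase, none separated the arms. GINS4 (chromosome 8, 41529218 to 41545030, plus strand), a subunit of the GINS complex, was at 26.1 and 13.8 TPM with the SNHG26 guides and at 54.6 and 14.5 TPM with the control guides. The day 2 control library was the highest by far, and the log2 change of -0.55 (SE 0.75) was 0.37 with that library left out. GINS2 ranged from 15.8 to 26.6 TPM, GINS1 from 2.66 to 4.92 TPM and GINS3 from 1.76 to 4.91 TPM. CDC45, the partner of GINS on the ring, ranged from 1.55 to 3.76 TPM, and MCM10, which helps activate it, from 0.963 to 2.12 TPM. The 4 GINS subunits together stood at 59.2 and 47.3 TPM with the SNHG26 guides and 85.5 and 39.0 TPM with the control guides, so the control libraries lay on either side of the others.

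Among the licensing genes, ORC6, a subunit of the origin recognition complex (chromosome 16, 46689643 to 46698394, plus strand), separated the arms. It was at 40.1 and 42.4 TPM with the SNHG26 guides and at 35.6 and 36.9 TPM with the control guides. The arms did not overlap, and the log2 change was small, 0.18 (SE 0.23; limma adjusted p = 0.961). GMNN (geminin), the inhibitor that keeps CDT1 from loading rings again, was at 75.6 and 64.6 TPM against 73.2 and 48.6 TPM, with overlap. Its log2 change was 0.22 (SE 0.30). CDC6, the loader ATPase, was at 19.6 and 24.8 TPM against 32.2 and 14.9 TPM, so the control libraries were the highest and the lowest of the 4.

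CDT1 and ORC1 are the members whose reads are exact, and both had few reads. The reads behind a given TPM depend on the span, so these genes do not stand for other members at similar levels. CDT1 (chromosome 16, 88803789 to 88809258, plus strand), which brings the ring to the origin, had 19 and 7 reads with the SNHG26 guides on days 2 and 3, and 10 and 22 reads with the control guides. In TPM these were 25.3, 8.36, 14.7 and 27.0. The guide change was 0.75 on day 2 and -1.58 on day 3, and the difference between the days was -2.33 (SE 0.73; limma unadjusted p = 0.0317, adjusted p = 0.961). With 1 library per arm and day, that SE and p-value rest on the guide and day differences, not on replicates. The exact 95% Poisson interval of 7 reads runs from 2.81 to 14.4, and that of 22 reads from 13.8 to 33.3. These intervals cover counting error only, since reads copied by PCR without molecular identifiers are not independent molecules.

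**Figure D4:**
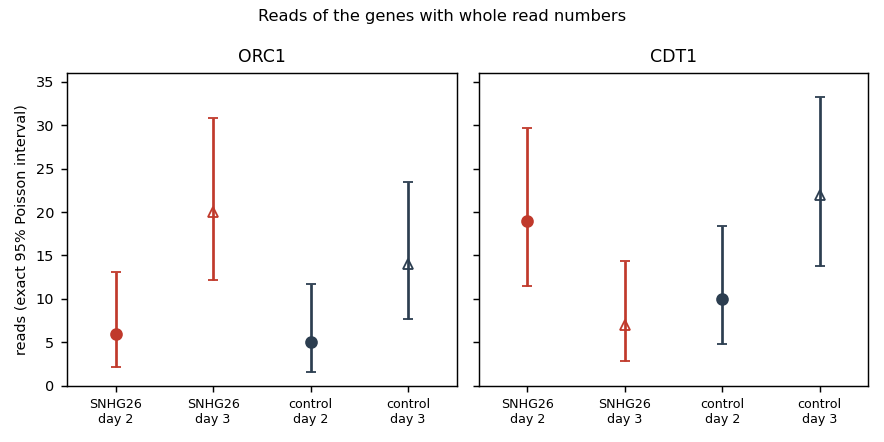
Reads of ORC1 (left) and CDT1 (right) in the 4 libraries, with exact 95% Poisson intervals as bars (counting error only), SNHG26 guides in red and control guides in dark blue. ORC1 had 20 and 14 reads on day 3 and 6 and 5 on day 2; CDT1 moved in opposite directions between the days in the 2 arms.

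The polymerase genes held the largest positive differences. POLD1, the catalytic subunit of polymerase delta (chromosome 19, 50384204 to 50418018, plus strand), was at 16.1 and 25.2 TPM with the SNHG26 guides and at 9.90 and 12.6 TPM with the control guides. The arms did not overlap, and the difference was positive on both days, at 0.65 and 0.94. The means were 20.7 ± 6.43 and 11.3 ± 1.92 TPM, and the log2 change was 0.80 (SE 0.36; limma unadjusted p = 0.0875, adjusted p = 0.935). POLE2, an accessory subunit of polymerase epsilon, was at 2.84 and 1.77 TPM against 0.899 and 0.451 TPM, a log2 change of 0.98 (SE 0.53; limma adjusted p = 0.935). On its full span these are at most 17.5, 12.2, 5.02 and 3.01 reads. The estimate from transcript spans averaged 1.83 reads over the 4 libraries. In the control libraries it was 0.977 on day 2 and 0.586 on day 3, so the change of POLE2 rests on very few reads. POLE, the catalytic subunit of polymerase epsilon, went the other way, with 6.63 and 5.94 TPM against 9.36 and 6.77 TPM.

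POLD2, the second subunit of polymerase delta (chromosome 7, 44114631 to 44124358, minus strand), was among the highest members, at 118.5 and 178.2 TPM with the SNHG26 guides and 165.7 and 98.5 TPM with the control guides. Its guide change was -0.48 on day 2 and 0.85 on day 3. Over both days the log2 change was 0.18 (SE 0.37). The difference between the days was 1.33 (SE 0.40; limma unadjusted p = 0.0289, adjusted p = 0.961). As for CDT1, the SE and p-values of this contrast rest on the guide and day differences, not on replicates. POLE3, a histone-fold subunit of polymerase epsilon, crossed over in the opposite sense, with 17.7 and 13.1 TPM against 8.04 and 24.9 TPM and a difference between the days of -1.93 (SE 0.76). Its values rested on at most 12.8 reads in any library. POLD3 ranged from 0.532 to 2.86 TPM and overlapped. Over all members, CDT1 and POLD2 were the 2 of 40 with an unadjusted p under 0.05 for a guide change that differed between the days, where 3.52% of all genes had one. None of the 40 passed the adjusted test, as 0.0967% of all genes did.

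PRIM1, the catalytic subunit of primase (chromosome 12, 56730438 to 56752374, minus strand), was at 11.3 and 12.6 TPM with the SNHG26 guides and at 6.92 and 8.84 TPM with the control guides. The arms did not overlap, with a log2 change of 0.55 (SE 0.31; limma adjusted p = 0.935). On its full span PRIM1 had at most 34.1 and 42.2 reads against 18.9 and 28.9. The estimate from transcript spans was 11.7 and 14.5 reads against 6.48 and 9.90. PRIM2, its regulatory partner, was at 1.76 and 0.966 TPM against 1.32 and 0.464 TPM, with overlap. The polymerase alpha subunits were at the edge of detection. POLA1 was listed at 0.0722, 0.297, 0.845 and 0 TPM, in the order SNHG26 guides day 2 and day 3, then control guides day 2 and day 3, and POLA2 at 0.365, 0.189, 0 and 1.04 TPM. Neither was tested. Added together, PRIM1, PRIM2, POLA1 and POLA2 came to 13.5 and 14.0 TPM with the SNHG26 guides. With the control guides they came to 9.08 and 10.4 TPM, a ratio of the means of 1.42.

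PCNA, the sliding clamp (chromosome 20, 5114953 to 5126626, minus strand), was at 134.6 and 151.9 TPM with the SNHG26 guides and at 150.8 and 116.9 TPM with the control guides. The values overlapped, and the log2 change was 0.11 (SE 0.22; limma adjusted p = 0.998). Of the subunits of replication factor C, which opens the clamp and loads it on DNA, RFC4 was the highest, from 31.4 to 41.3 TPM. RFC2 ranged from 3.22 to 4.84 TPM and RFC3 from 6.97 to 8.90 TPM. RFC5 was at 11.7 and 12.2 TPM with the SNHG26 guides and at 12.4 and 5.62 TPM in the control arm. The log2 change of 0.46 (SE 0.45) was -0.053 without the low day 3 control library. The RFC genes overlapped between the arms in all 5 cases.

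Of the single-strand binding protein RPA, the smallest subunit separated the arms and the others did not. RPA3 was at 114.2 and 149.1 TPM with the SNHG26 guides and at 113.5 and 103.3 TPM with the control guides. The arms did not overlap, by a margin of under 1 TPM on day 2, and the log2 change was 0.27 (SE 0.23; limma adjusted p = 0.935). RPA2 was at 13.4 and 17.6 TPM against 13.9 and 10.00 TPM, and RPA1 ranged from 2.29 to 2.70 TPM. FEN1, the flap nuclease of Okazaki fragments (chromosome 11, 61792911 to 61797238, plus strand), had the highest mean of the members, with 129.7 and 192.4 TPM against 144.8 and 108.6 TPM. Its arms overlapped, and the log2 change was 0.33 (SE 0.30; limma adjusted p = 0.935). LIG1, the ligase that seals those fragments, was at 5.51 and 4.54 TPM with the SNHG26 guides and at 13.5 and 4.03 TPM with the control guides. The high value was confined to the day 2 control library, and the log2 change of -0.51 (SE 0.62) was 0.26 without that library.

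Of the genes of nucleotide supply, TYMS, which makes thymidylate (chromosome 18, 657653 to 673578, plus strand), was at 6.44 and 7.41 TPM with the SNHG26 guides and at 17.2 and 8.06 TPM with the control guides. The arms did not overlap, but the day 3 libraries were close and the day 2 control library stood apart, as it did for LIG1 and GINS4. The log2 change of TYMS was -0.70 (SE 0.46; limma adjusted p = 0.935), and -0.20 without that library. RRM2, the small subunit of ribonucleotide reductase, was at 92.7 and 66.4 TPM against 62.0 and 56.1 TPM, without overlap and with a log2 change of 0.41 (SE 0.27; limma adjusted p = 0.935). RRM1, the large subunit, ranged from 3.30 to 4.55 TPM with overlap. DUT, which removes dUTP, was at 49.7 and 54.5 TPM against 57.7 and 57.9 TPM, lower on both days by a log2 change of -0.15 (SE 0.21).

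Between day 2 and day 3 of doxycycline no replication gene passed the test either. Of the 40 members, 0 had a limma adjusted p under 0.05, where 3 genes in all passed (0.0363%). RFC1 and GINS4, both lower on day 3, had an unadjusted p under 0.05, which makes 2 of 40, and 6.61% of all genes had one. The median log2 change was -0.06 over the members, with 18 above 0 and 22 below, and 0.01 over all genes.

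GINS4 had the largest difference between the days, -1.36 (SE 0.43; limma unadjusted p = 0.0341, adjusted p = 0.674). It was lower on day 3 in both arms, by 0.87 with the SNHG26 guides and by 1.85 with the control guides on the log2 scale. RFC1, the large subunit of the clamp loader (chromosome 4, 39287456 to 39366375, minus strand), was at 10.7 and 9.51 TPM on day 2, SNHG26 guides first, and at 5.17 and 3.85 TPM on day 3. The days did not overlap, and the changes were alike in the arms, -0.92 with the SNHG26 guides and -1.12 with the control guides. Its log2 change was -1.02 (SE 0.29; limma unadjusted p = 0.0254, adjusted p = 0.628). Its reads are not exact: they were at most 115.7 and 93.5 on day 2 and 62.5 and 45.2 on day 3, and the estimate from transcript spans ran from 4.13 to 10.6 per library.

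In some of the abundant members the arms went opposite ways between the days. This was not particular to them: the sign was the same in both arms in 19 of the 40 members (47.5%). Of all genes that moved in both arms, 53.9% had the same sign. On the log2 scale POLD2 had a day difference of 0.58 with the SNHG26 guides and -0.74 with the control guides, and FEN1 had 0.57 and -0.41. RPA3 had 0.38 and -0.13, and MCM4 had -0.43 and 0.45. Averaged over the arms, the log2 difference from day 2 to day 3 was 0.08 for FEN1, -0.08 for POLD2, -0.10 for PCNA, 0.12 for RPA3, 0.01 for MCM4 and 0.17 for MCM7, each smaller than its SE. It was -0.31 (SE 0.28) for RRM2 and -0.40 (SE 0.22) for GMNN. At lower levels, LIG1 had -0.88 (SE 0.49) and RFC5 -0.48 (SE 0.43), and POLE3 had 0.56 (SE 0.54), POLD1 0.47 (SE 0.47) and PRIM1 0.23 (SE 0.37). None of these passed, with limma adjusted p-values of 0.76 or more.

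ORC1, the large subunit of the origin recognition complex (chromosome 1, 52372829 to 52404423, minus strand), was the main member in the other direction. It had 6 and 5 reads on day 2, SNHG26 guides first, and 20 and 14 reads on day 3, or 1.38 and 1.27 TPM against 4.13 and 2.98 TPM. Both day 3 libraries were above both day 2 libraries, with a log2 change of 0.96 (SE 0.37; limma unadjusted p = 0.064, adjusted p = 0.76). The exact 95% Poisson intervals of 6 and 20 reads, 2.20 to 13.1 and 12.2 to 30.9, overlap slightly, as do those of 5 and 14 reads, 1.62 to 11.7 and 7.65 to 23.5. Overlap of such intervals is not a test of a difference, and they cover counting error only.

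By overlap, 2 of the 40 members (ORC1 and CDC45) were higher in both day 3 libraries than in both day 2 libraries, against 17.1% of all genes tested. Another 9 (RFC1, RFC2, GINS4, LIG1, MCM5, MCM6, GMNN, PRIM2 and POLD3) were lower, against 18.4%. The share of lower members was near the background. The day change had the same sign in both arms in 19 of the 40 members (47.5%), against 53.9% of the 7538 genes that moved in both arms. GMNN, for example, was at 75.6 and 73.2 TPM on day 2 and at 64.6 and 48.6 TPM on day 3. LIG1 and POLD3 were lower on day 3 mostly in the control arm, where their changes were -1.53 and -1.33, against -0.23 and -0.40 with the SNHG26 guides.

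**Figure D5:**
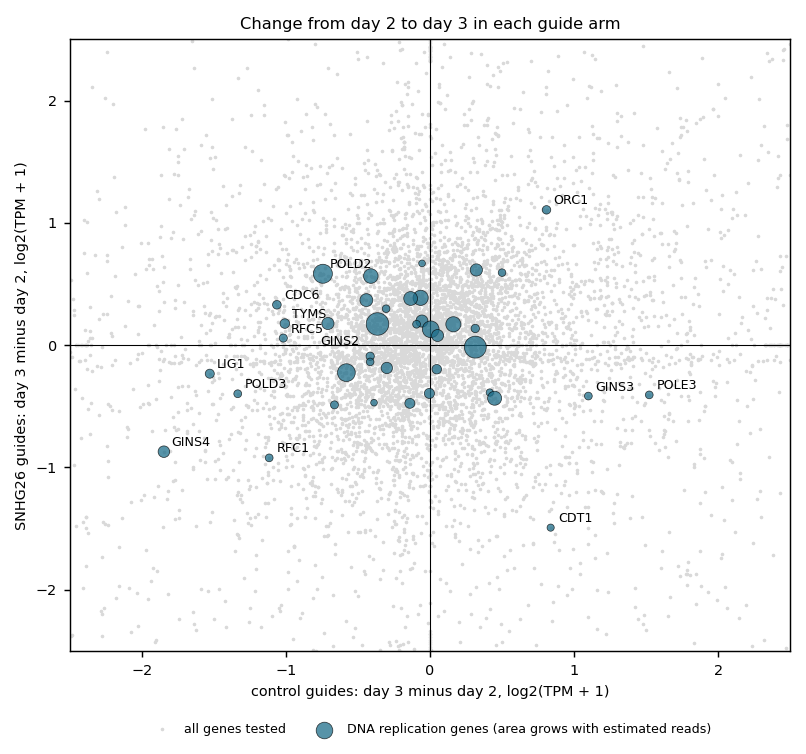
Difference between day 3 and day 2 on log2(TPM + 1) in the control arm (horizontal axis) and the SNHG26 arm (vertical axis), for the 40 members past the filter (blue, area growing with the estimated reads) and all genes tested (grey; a few lie outside the axes). GINS4 and RFC1 lie at the lower left, lower on day 3 in both arms, and ORC1 lies at the upper right.

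Several of the abundant members shared 1 low library. The day 3 control library held the lowest value of 17 of the 40 members (42.5%), among them PCNA, POLD2, FEN1, RPA3, RPA2, GINS2, GMNN and CDC6. Over the genes tested that have a single lowest library, it held 29.2%. The same library held the highest value of 9 of the 40 (22.5%), among them MCM4, MCM7, DUT and MCM2. Over all genes tested it held 22.4%. The sum of all 42 members was 1225 and 1345 TPM with the SNHG26 guides on days 2 and 3, and 1339 and 1130 TPM with the control guides, a mean of 1285 ± 84.8 against 1234 ± 147.9 TPM. The ratio of the arms was 0.915 on day 2 and 1.19 on day 3, so the sum pointed in opposite directions on the 2 days. The part of that library in these differences was not tested.

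Members with few estimated reads had larger changes in the median. Members with fewer than 20 estimated reads had a median absolute log2 change of 0.30 between the arms and 0.37 between the days, and those with 20 or more had 0.22 and 0.15. This is a description of 21 and 19 members past the filter.

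Other genes of replication were counted from a separate list of 47, covering the rest of the origin recognition complex, firing factors, fork protection, ribonuclease H2, nucleotide enzymes and histone assembly at the fork. Past the filter were 38, of which 0 had an adjusted p under 0.05 in limma for the guides or for the days. Their median log2 change with the SNHG26 guides was 0.09, against 0.04 over all genes tested. Of the 38, 9 were higher and 4 lower without overlap, against 16.1% and 13.2% of all genes tested. ORC3, another subunit of the origin complex, was at 28.2 and 34.5 TPM with the SNHG26 guides and at 17.1 and 22.7 TPM with the control guides, with no overlap. NASP, a histone chaperone, was at 50.1 and 49.1 TPM against 51.0 and 81.8 TPM, also without overlap. Their promoters held an E2F octamer in 13 of the 39 genes with a window (33.3%).

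Of 26 regulators of the passage from G1 to S, 14 passed the filter and 0 passed either limma test at an adjusted p of 0.05. Between the arms 8 of the 14 overlapped, among them CDK4, CCNA2, TFDP1 and E2F4. Another 2 (CDK2 and CCNE1) were higher and 4 (E2F1, E2F2, CCND2 and CDKN1B) lower with the SNHG26 guides, against 16.1% and 13.2% of all genes tested. E2F1 was at 1.34 and 1.20 TPM with the SNHG26 guides and at 2.95 and 1.85 TPM with the control guides, and E2F2 at 0.882 and 0.527 TPM against 1.30 and 3.02 TPM. E2F1 came out as exact reads, with 2 and 2 against 4 and 3. E2F2 had at most 3 and 2 reads against 4 and 11.2. CDK2, the kinase of S phase, was at 9.79 and 16.9 TPM against 6.74 and 1.13 TPM, the last on at most 1.01 reads. CDKN1B, an inhibitor of that kinase, was at 1.46 and 1.31 TPM against 3.21 and 5.37 TPM. It had at most 7.37 and 7.37 reads against 14.7 and 29.5, and transcript spans put them at 0.889 and 0.889 against 1.78 and 3.56. CCNE1, the cyclin that pairs with CDK2, was at 2.37 and 1.62 TPM against 1.30 and 1.09 TPM, on at most 4 and 3.06 reads against 2 and 2. The genes named from both lists were picked after their values were seen.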

How the data were processed

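Poly(A) RNA of 4 libraries was reverse transcribed from oligo-dT with strand switching, amplified for 14 cycles and sequenced on nanopores, per the labels' protocols. In the deposited table each library has 1 column of TPM per gene. Minimap2 2.24-r1122 and the build GRCh38 are named in the submitters' processing notes. The counting tool, annotation release, filters and use of strand are not given in the sources used here.

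The value of 1 read was taken from the most frequent product of TPM and span among short genes, and a gene counted as whole reads where every library lay within 0.0001 read of a whole number. Log2(TPM + 1) was used, so changes of low genes come out too small. The 8274 genes averaging 1 TPM or more were fitted with limma 3.58.1 in R 4.3.3 (eBayes with a trend, Benjamini-Hochberg adjustment over all of them, threshold 0.05), for the guide arms, the days and the crossed contrast, each on all 4 libraries without a block. The crossed contrast grouped libraries that differ in both arm and day. Its spread is therefore made of the guide and day differences, and small ones make its p-values small. The code was run on simulated data, where it had to return the right sign of the planted changes. That check sets no bound on the size of change these fits could miss. Promoter letters were searched with Python 3.11.15.

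The members and lists were chosen with earlier results of these data known. Every member is named. By rule, log2 changes are given for the 8 members with the highest mean TPM and, in each comparison, for the 4 highest and 4 lowest changes among members averaging 5 TPM or more. Changes of other members are given after their values were seen. Alternatives were pseudocounts of 0.1 and 5, no filter, a filter at 5 TPM, median ratio scaling, a replicate block, each library left out and, added after seeing the data, a filter at 20 estimated reads.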

Additional observations from a re-analysis of the deposited data

How the results depend on the processing

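No member passed an adjusted p of 0.05 under any setting tried, with limma adjusted p-values of at least 0.647 for the guides and 0.212 for the days, both reached with a library left out. The number of genes past the threshold for the guides was 0 throughout, with 83 to 681 genes at an unadjusted p under 0.05. For the days it was 3, and 0 with pseudocounts of 0.1 or 5, no filter, 20 estimated reads, the replicate block or any library left out (0 to 0), while 231 to 880 genes had an unadjusted p under 0.05; the cause of the loss was not tested. For a guide change that differed between days it was 8, then 14 (pseudocount 0.1), 13 (5 TPM filter) and 0 (pseudocount 5, no filter or 20 estimated reads, with 296, 500 and 70 genes at an unadjusted p under 0.05). Neither a block nor a left-out library was run for that contrast, whose spread is made of the guide and day differences. Same-day libraries deviated from their arms' averages with a correlation of 0.0464, so the shared number was not taken as a pairing. The replicate block moved the genes at an unadjusted p under 0.05 from 337 to 359 for the guides and from 547 to 482 for the days, and changed no call of a member. With a library left out, the remaining library of its group was assumed to vary like the others, and the members' median ran from -0.02 to 0.21 for the guides and from -0.14 to 0.04 for the days. The log2 change kept its sign in every setting for 19 of 40 members for the guides and 20 of 40 for the days. Away from left-out libraries, the sign turned for the guides in CDC6 (-0.0062 with pseudocount 5, -0.031 with median ratio scaling), POLD3 (-0.016, pseudocount 5) and RFC4 (-0.028, median ratio scaling), and for the days in GINS1 (-0.0028, pseudocount 5) and RRM1 (0.0029, median ratio scaling). With a library left out, guide changes that turned ran over these log2 ranges: CDC6 -0.53 to 0.54, CDT1 -1.16 to 0.33, GINS2 -0.079 to 0.63, GINS3 -0.24 to 0.86, GINS4 -1.47 to 0.37, GMNN -0.066 to 0.51 and LIG1 -1.27 to 0.26. Others were MCM10 -0.21 to 0.46, MCM3 -0.10 to 0.095, MCM6 -0.12 to 0.27, ORC1 -0.33 to 0.77, PCNA -0.076 to 0.29, POLD2 -0.19 to 0.56 and POLD3 -0.62 to 0.71. The rest were POLE3 -0.68 to 0.84, RFC1 -0.31 to 0.81, RFC3 -0.20 to 0.12, RFC4 -0.18 to 0.20, RFC5 -0.053 to 0.97, RPA1 -0.052 to 0.12 and RRM1 -0.22 to 0.087. Day changes that turned ran over these: CDT1 -1.12 to 0.46, DUT -0.039 to 0.17, FEN1 -0.33 to 0.49, GINS1 -0.33 to 0.36, GINS2 -0.62 to 0.093, GINS3 -0.19 to 0.88 and MCM2 -0.34 to 0.19. Further ones were MCM4 -0.59 to 0.60, ORC6 -0.033 to 0.16, PCNA -0.28 to 0.092, POLD1 -0.0040 to 0.94, POLD2 -0.50 to 0.34, POLE2 -0.94 to 0.078 and PRIM1 -0.094 to 0.54. The last were RFC5 -0.98 to 0.017, RPA1 -0.044 to 0.12, RPA2 -0.41 to 0.34, RPA3 -0.14 to 0.39, RRM1 -0.19 to 0.18 and TYMS -1.06 to 0.23. Depth limits the precision, since 23 members had fewer than 20 estimated reads per library on average.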
